A study of Mus musculus with 7 samples.

Results

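Slit1, Slit2, Slit3, Robo1, Robo2, Srgap1, Srgap2 and Srgap3, the genes of Slit ligands, their Robo receptors and the srGAP proteins that bind Robo tails, were followed in the left lungs of mice with and without Gata5. The 8 genes were represented by 18 of the 45037 probe sets that were not controls on an Affymetrix mouse expression array, namely every probe set whose single annotated gene symbol was a member. The family was selected on the KO minus WT difference of Slit2, which was negative with a very small spread, so the Slit2 values are given as a description without a test. The mice were 3 Gata5 knockouts (KO) and 4 wild types (WT), all 8 weeks old, with 1 array of total RNA per mouse. The labels call the samples of a group biological replicates and name no strain, litter or sex. They also do not say which part of Gata5 was deleted, or in which cells. Values are deposited log2 levels, so a difference of 1 is a doubling. Levels of different probe sets are not set against each other, except to choose the brightest of a gene and in sums over cell type markers.

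Slit proteins are large secreted glycoproteins that bind the immunoglobulin domains of Robo receptors and are best known for repelling growing axons at the midline. The cytoplasmic tail of Robo recruits srGAPs, which switch off small GTPases and bend membranes through an F-BAR domain. In the mouse lung, Robo1 loss is known to disturb perinatal maturation, and Slit and Robo genes are known to act in the clustering of pulmonary neuroendocrine cells. Slit2 and Slit3 each carry in their introns a hairpin for the same microRNA, miR-218, which is reported to act on Robo1 transcripts.

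The promoters of Slit2 and Slit3 are shown because these were the members with the largest differences and the deleted gene encodes a factor that binds GATA sequences. RefSeq promoters of build GRCm38.p6, from 250 bases before to 50 bases after each start site, were found for 7 of the 8 genes, 9 promoters in all. Capitals mark GGGCGG on either strand, the GC box, and TATAAA on either strand. The Slit2 promoter lies at chr5:47982905-47983204 on the plus strand and the Slit3 promoter at chr11:35121206-35121505 on the plus strand.
Slit2: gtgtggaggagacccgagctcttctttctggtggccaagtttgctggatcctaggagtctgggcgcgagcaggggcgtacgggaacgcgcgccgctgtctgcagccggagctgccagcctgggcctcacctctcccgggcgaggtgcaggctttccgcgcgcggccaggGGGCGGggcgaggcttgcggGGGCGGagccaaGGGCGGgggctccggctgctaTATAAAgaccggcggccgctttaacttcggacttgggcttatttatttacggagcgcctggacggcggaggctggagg
Slit3: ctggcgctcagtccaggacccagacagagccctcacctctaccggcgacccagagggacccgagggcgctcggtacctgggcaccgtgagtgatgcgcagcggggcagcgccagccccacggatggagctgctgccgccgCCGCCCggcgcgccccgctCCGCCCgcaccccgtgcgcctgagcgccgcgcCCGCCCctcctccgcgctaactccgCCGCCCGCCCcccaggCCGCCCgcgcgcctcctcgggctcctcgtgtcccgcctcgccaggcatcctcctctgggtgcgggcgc
Slit2 held 3 GC boxes and a TATAAA that begins 28 bases before the start site. Slit3 held 6 GC boxes and no TATAAA. Over 32851 promoters of the same length, 35.7% held a GC box and 13.6% a TATAAA. The GATA motif was searched on both strands as the letters GATA with A or T just before and A or G just after, which can share an end base with a GC box and which 29.8% of all promoters held. None of these letters was in the Slit2 or Slit3 window, and among the 9 member promoters 1 of the 3 of Robo2 held the motif, 186 bases before the start site. Absence from a 300-base window says nothing about binding elsewhere.

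The mature miR-218-5p encoded within both ligand genes is shown with its seed, bases 2 to 8, in capitals. Its copy inside Slit2 lies at chr5:48223966-48223986 and its copy inside Slit3 at chr11:35616840-35616860, both on the plus strand of GRCm38.p6. The 3p strands of the hairpins are shown because they tell the copies apart.
miR-218-5p: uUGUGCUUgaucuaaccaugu
miR-218-1-3p, from Slit2: aAACAUGGuuccgucaagcacc
miR-218-2-3p, from Slit3: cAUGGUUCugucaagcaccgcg
The 5p strand has the same letters in both copies. No probe set was annotated to a miR-218 gene, so the microRNA was not measured here.

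Median log2 levels lay between 6.12 and 6.15 on the KO arrays and between 6.10 and 6.11 on the WT arrays, without overlap. Gata5 at probe set 1450126_at had 4.98, 4.71 and 5.15 in KO lungs, against 5.32, 5.53, 5.85 and 5.47 in WT lungs (limma adjusted p = 0.0336), and its other probe set did not pass (-0.26, adjusted p = 0.0993). Both were dim, and they check the label only if they lie in the deleted part. WT replicate 4 stood apart in sex-linked transcripts, with Xist at 12.72 against 6.31 to 6.48 on the other 6 arrays. Eif2s3y, a gene of the Y chromosome, read 3.71 there and 9.30 to 9.68 elsewhere. By these transcripts WT replicate 4 was female and the other 6 mice male, so the WT group was of mixed sex. The 3′ minus 5′ log2 difference of the beta-actin control probe sets, which grows with RNA degradation, was 4.74 to 5.39 on KO arrays and 3.88 to 4.31 on WT arrays, and those of Gapdh, 3′ minus middle, 3.85 to 4.31 on KO arrays and 3.33 to 3.68 on WT arrays. Gapdh 3′ minus 5′ did not separate the groups, with 6.36 to 6.51 on KO arrays and 6.36 to 6.60 on WT arrays. The hybridisation spikes averaged 10.46 to 10.73 on KO arrays and 10.21 to 10.43 on WT arrays. Over all 45037 probe sets, 9.89% passed the limma threshold of adjusted p under 0.05, 6.37% lower and 3.53% higher in KO, so 35.6% of those called were higher. That share was 46.5% after a further quantile normalization and 24.1% after median centring.

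In KO lungs the ligands Slit2 and Slit3 were lower and no receptor or srGAP probe set passed the threshold. Slit2, a ligand of Robo1 and Robo2, stood at 60.0% of its WT level at its brightest probe set, and Slit3, the ligand linked in mice to diaphragm development, fell 1.27-fold. Leaving Slit2 out, 1 of the 15 probe sets of the other 7 genes was called, that of Slit3, which is 6.67% against 9.89% of all probe sets. Groups did not overlap at 3 of these 15, against 23.4% of all probe sets. Since the family was picked on this comparison, nothing is read from these shares. The median KO minus WT difference was 0.11 over the 15 probe sets and 0.04 over all probe sets. Of the 18, 9 averaged a log2 level of 5.47 or more, which is the 40th percentile over the array, and the other 9, called dim here, averaged less. No filter on level was applied before the fit.

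**Figure D1:**
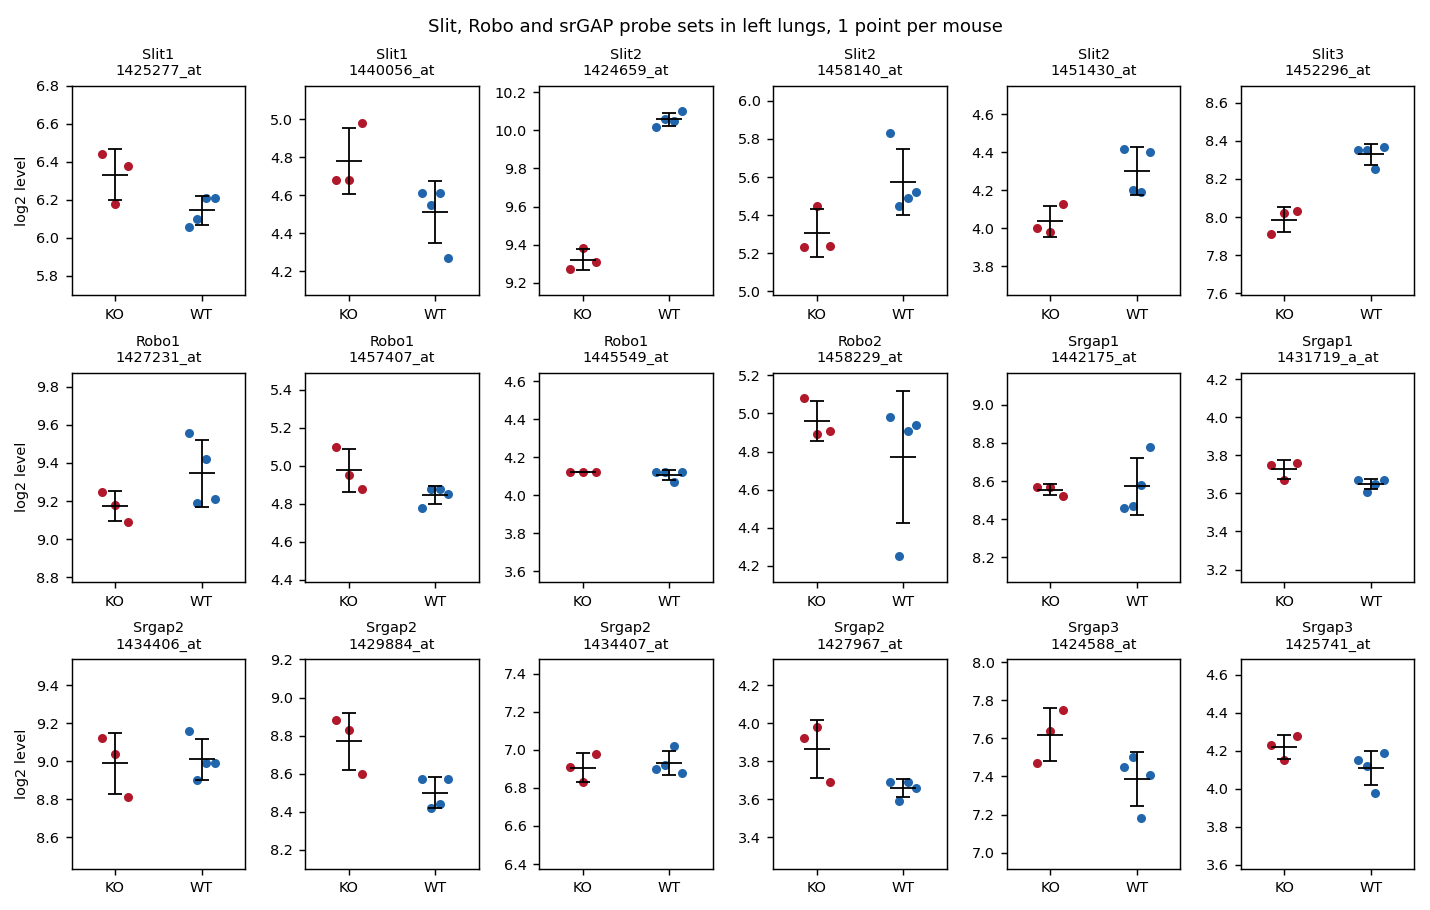
Log2 level (y axis) of each of the 18 member probe sets in KO and WT left lungs (x axis), with 1 point per mouse, the mean as a bar and the SD as whiskers; every panel spans the same height. At Slit2 1424659_at the 3 KO mice sit between 9.27 and 9.38 and the 4 WT mice between 10.02 and 10.10, and at Slit3 1452296_at the KO mice sit between 7.91 and 8.03 and the WT mice between 8.25 and 8.37.

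Slit2 was measured by 3 probe sets. At 1424659_at the log2 levels were 9.27, 9.38 and 9.31 in KO lungs, against 10.02, 10.06, 10.05 and 10.10 in WT lungs. All KO mice lay below all WT mice, and the gap between the highest KO and the lowest WT mouse was 0.64, wider than the range within either group (0.11 in KO and 0.08 in WT). The KO minus WT difference was -0.74 (95% interval -0.86 to -0.62). Its SD within groups was 0.044, part of what the family was selected on.

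The other Slit2 probe sets were dim. At 1458140_at the levels were 5.23, 5.45 and 5.24 in KO lungs, against 5.83, 5.45, 5.49 and 5.52 in WT lungs. The highest KO and the lowest WT mouse had the same value, and the difference was -0.27 (95% interval -0.50 to -0.03). At 1451430_at, which the annotation ties to the same source sequence as 1424659_at, the levels were 4.0, 3.98 and 4.13 in KO lungs, against 4.42, 4.20, 4.19 and 4.40 in WT lungs. These groups did not overlap, and the difference was again -0.27 (95% interval -0.45 to -0.08). All 3 Slit2 differences were thus negative, and the mean of the 3 probe sets gave -0.42.

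Slit3 had 1 probe set, 1452296_at. Its log2 levels were 7.91, 8.02 and 8.03 in KO lungs, against 8.35, 8.35, 8.25 and 8.37 in WT lungs. The groups did not overlap, with a gap of 0.22. KO lungs averaged 7.99 ± 0.07 for Slit3 and WT lungs 8.33 ± 0.05 (SD, n = 3 and 4), a difference of -0.34 (95% interval -0.48 to -0.21, limma adjusted p = 0.0123). The call held whichever array was left out, with limma adjusted p up to 0.0397. It was lost with the replicate number as a block (difference -0.33, adjusted p = 0.0861), although same-numbered mice were not taken as pairs. The standard error was 0.079 with that block against 0.058 without it. The call was also lost in the covariate fits and the 5 mice described below.

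Slit1, the ligand known chiefly from the nervous system, had the opposite sign. At 1425277_at its levels were 6.44, 6.18 and 6.38 in KO lungs, against 6.06, 6.10, 6.21 and 6.21 in WT lungs. The groups overlapped through KO replicate 2, and the difference of 0.19 did not pass (95% interval 0.01 to 0.36, limma adjusted p = 0.150). At the dimmer 1440056_at the levels were 4.68, 4.68 and 4.98 in KO lungs, against 4.61, 4.55, 4.61 and 4.27 in WT lungs. The groups did not overlap, but by 0.07 only, and the difference of 0.27 did not pass (95% interval 0.02 to 0.52, limma adjusted p = 0.144).

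**Figure D2:**
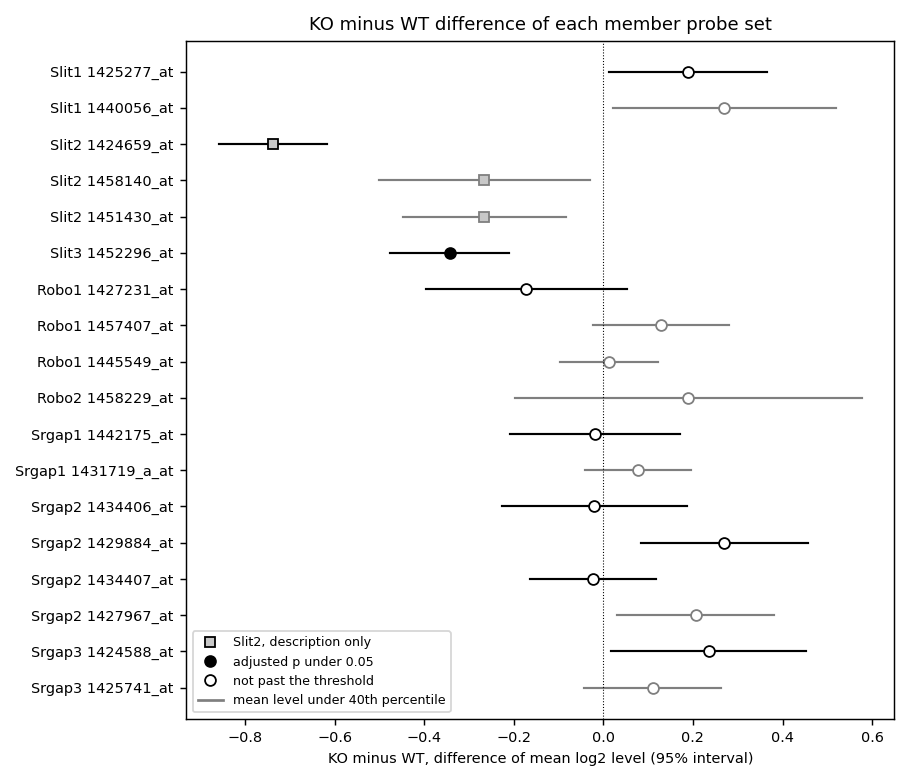
KO minus WT difference of mean log2 level (x axis) with its 95% interval for the 18 member probe sets (rows); grey lines mark probe sets under the 40th percentile of mean level, squares Slit2, which was not tested, and filled circles those past the threshold. The 3 Slit2 differences lie between -0.74 and -0.27, Slit3 at -0.34, and the receptor and srGAP differences between -0.17 and 0.27.

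The Slit2 and Slit3 differences were set against the features of the arrays that moved with genotype. Adjusting for beta-actin 3′ minus 5′, Slit2 at 1424659_at differed by -0.78 and Slit3 by -0.35. Adjusting for beta-actin 3′ minus middle, the values were -0.69 for Slit2 and -0.40 for Slit3, for Gapdh 3′ minus middle they were -0.82 for Slit2 and -0.33 for Slit3, and for the hybridisation spikes -0.78 for Slit2 and -0.42 for Slit3. No tested member passed in any of these fits, in which at most 13 of all probe sets did, and the limma adjusted p of Slit3 was 0.177 to 0.305. Each of these features separated the KO from the WT arrays, so such a fit cannot tell it apart from genotype, and nothing is read from the sizes. Standard errors rose from 0.053 to between 0.096 and 0.108 for Slit2. For Slit3 they rose from 0.058 to between 0.110 and 0.121. Without WT replicate 4 Slit2 was at -0.72 and Slit3 at -0.33 (adjusted p = 0.0397). In the 5 mice whose titles carry the lowest numbers, 3 KO and 2 WT, Slit2 was at -0.72 and Slit3 at -0.36 (limma adjusted p = 0.103).

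**Figure D3:**
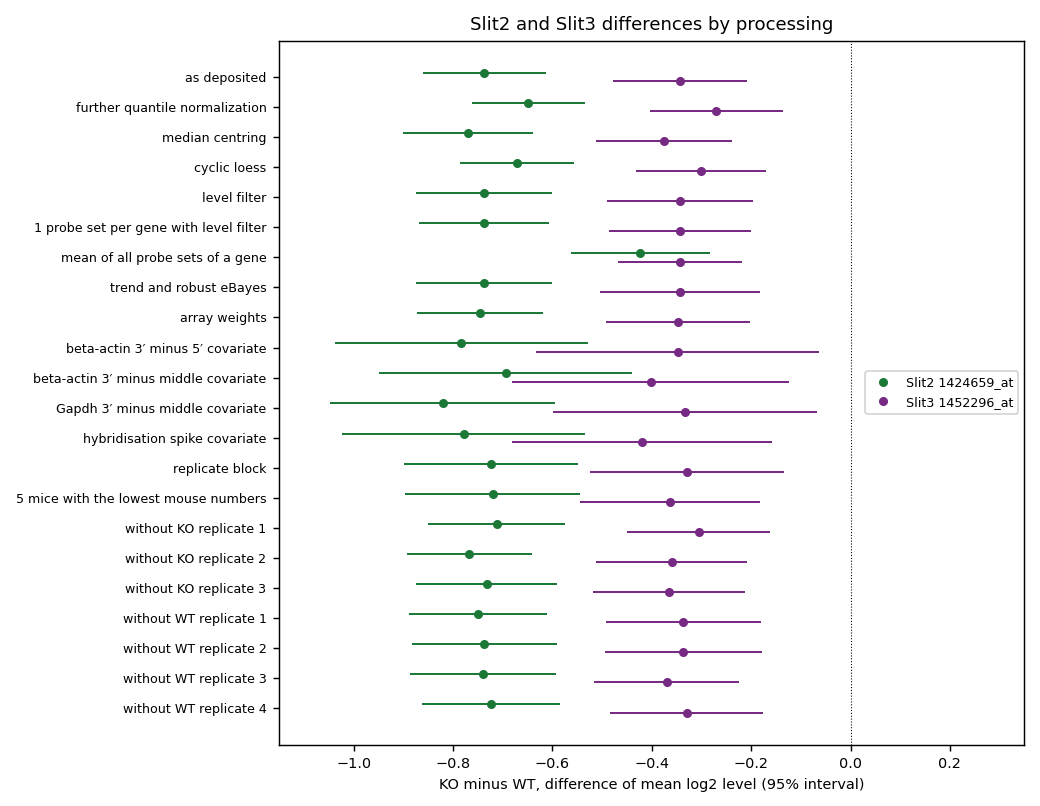
KO minus WT difference of mean log2 level (x axis) with its 95% interval for Slit2 and Slit3 as deposited and under 21 other ways of processing or selecting the arrays (rows). Every difference is negative, between -0.82 and -0.42 for Slit2 and between -0.42 and -0.27 for Slit3; the mean of all probe sets gives the smallest Slit2 difference.

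Both receptors had values that did not pass. Robo1, a main Slit receptor, had levels of 9.25, 9.18 and 9.09 in KO lungs, against 9.56, 9.19, 9.42 and 9.21 in WT lungs at 1427231_at. KO replicate 1 lay inside the WT range and the other KO mice just under it, and the difference was -0.17 (95% interval -0.40 to 0.05, limma adjusted p = 0.269). At 1457407_at, which was dim, the levels were 5.10, 4.95 and 4.88 in KO lungs, against 4.78, 4.88, 4.88 and 4.85 in WT lungs. The groups met at 4.88, and the difference was 0.13 (95% interval -0.02 to 0.28, adjusted p = 0.227). The differences at these 2 Robo1 probe sets were themselves 0.30 apart, which an exact two-sided permutation test over 35 splits did not separate from 0 (p = 0.0857). This test was run only where the probe sets of a gene differed in sign and by more than 0.3. The values themselves thus chose it, and nothing is read from it. The third, 1445549_at, read 4.12 on 6 of the 7 arrays and so carried almost no variation.

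Robo2, the receptor that shares Slit2 as a ligand with Robo1, had 1 dim probe set. Its levels at 1458229_at were 5.08, 4.89 and 4.91 in KO lungs, against 4.98, 4.25, 4.91 and 4.94 in WT lungs. The ranges overlapped except for WT replicate 2, which stood lower than every other array. The difference was 0.19 (95% interval -0.20 to 0.58, limma adjusted p = 0.468).

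The srGAPs followed the receptors in not passing. Srgap1, the member first found as a Robo1 partner, had levels of 8.57, 8.57 and 8.52 in KO lungs, against 8.46, 8.47, 8.58 and 8.78 in WT lungs at 1442175_at. The KO mice lay inside the WT range, and the difference was -0.02 (95% interval -0.21 to 0.17, limma adjusted p = 0.891). At the dim 1431719_a_at the difference was 0.08 (95% interval -0.04 to 0.19, limma adjusted p = 0.343).

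Srgap2, a regulator of membrane protrusion and cell migration, had 4 probe sets, whose differences from each other were not tested. At 1434406_at the levels were 9.12, 9.04 and 8.81 in KO lungs, against 9.16, 8.90, 8.99 and 8.99 in WT lungs. The groups overlapped, and the difference was -0.02 (95% interval -0.23 to 0.19, limma adjusted p = 0.896). At 1429884_at the levels were 8.88, 8.83 and 8.60 in KO lungs, against 8.57, 8.42, 8.44 and 8.57 in WT lungs. Here all KO mice lay above all WT mice, KO replicate 3 by 0.03, and the difference was 0.27 (95% interval 0.08 to 0.46, adjusted p = 0.0719). It passed without KO replicate 3 (0.36, adjusted p = 0.0393), after a further quantile normalization (0.35, adjusted p = 0.0258) and after cyclic loess (0.32, adjusted p = 0.0350). At 1434407_at the difference was -0.02 (95% interval -0.16 to 0.12) and at the dim 1427967_at 0.21 (95% interval 0.03 to 0.38, adjusted p = 0.122), which passed without KO replicate 3 (0.29, adjusted p = 0.0418).

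Srgap3, known in mouse brain for its part in spine formation, had levels of 7.47, 7.64 and 7.75 in KO lungs, against 7.45, 7.50, 7.18 and 7.41 in WT lungs at 1424588_at. KO replicate 1 lay inside the WT range and the other KO mice above it. The difference was 0.24 (95% interval 0.02 to 0.45, limma adjusted p = 0.147). At the dim 1425741_at it was 0.11 (95% interval -0.04 to 0.26, adjusted p = 0.298).

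Genes that act with Slit and Robo were read at the probe set of highest mean of each gene, where 10.5% of 18193 genes were called, 6.52% lower and 4% higher in KO. Of 45 listed genes 43 were measured: 7 fell (16.3%), 4 rose (9.30%) and 32 did not pass, with a median difference of -0.13 against 0.04 over all genes. All genes include dim ones, whereas 42 of the 43 were not dim. In a fit of only the 13285 genes that were not dim, 15.6% were called in either direction, with a median difference of -0.0033. In that fit 12 of the 42 pathway genes were called. The list was chosen with earlier results of these data known, so nothing is read from these shares. Among 13 receptors and receptor partners, Robo3, a divergent Robo of commissural axons, rose: its levels were 5.91, 5.71 and 5.92 in KO lungs, against 5.52, 5.31, 5.32 and 5.39 in WT lungs, a difference of 0.46 (limma adjusted p = 0.0120). The groups did not overlap, and its second probe set was at 0.16 without passing. Sdc2, a heparan sulfate proteoglycan of the cell surface, fell with a difference of -0.60 (adjusted p = 0.00805), and its 3 other probe sets lay between -0.39 and 0.0042. Cxcr4, the chemokine receptor whose signalling Slit can dampen, fell with -0.76 (adjusted p = 0.0368), and Sdc1 rose with 0.20 (adjusted p = 0.0464), but another of its probe sets was called in the opposite direction at -0.34.

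Robo4, the endothelial Robo, had levels of 8.32, 8.25 and 8.04 in KO lungs, against 8.42, 8.40, 8.42 and 8.67 in WT lungs. The groups did not overlap, and the difference of -0.27 did not pass (limma adjusted p = 0.0968). Of 5 measured genes of heparan sulfate synthesis, a sugar that holds Slit to Robo, Ext1 fell with -0.53 (adjusted p = 0.0255), while its other probe set was at 0.21, and 4 did not pass.

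Among 25 adaptors, GTPases and cytoskeletal effectors, 4 fell, 2 rose and 19 did not pass. Nck1, an adaptor whose fly counterpart links Robo to the kinase Pak, had levels of 7.99, 8.29 and 8.15 in KO lungs, against 8.88, 8.87, 8.91 and 9.19 in WT lungs. All KO mice lay below all WT mice, and the difference was -0.82 (limma adjusted p = 0.00515), but its 2 other probe sets were at -0.053 and -0.045. Vasp, an actin-binding protein of the Ena family, fell with -0.92 (adjusted p = 0.0205), Rac1, a small GTPase of the actin cytoskeleton, with -0.45 (adjusted p = 0.0129) and the kinase Pak2 with -0.30 (adjusted p = 0.0217). Pxn, a focal adhesion protein that binds Robo4, rose with 0.24 (adjusted p = 0.0345), and Clasp2, a microtubule-tip protein named after its value was seen, with 0.28 (adjusted p = 0.0349). Rac1, Pak2, Pxn and Clasp2 each had at least 1 other probe set of opposite sign. Of the 11 called genes, Robo3, Sdc2, Nck1 and Rac1 passed whichever array was left out, while each of the other 7 lost the call without at least 3 of the arrays.

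**Figure D4:**
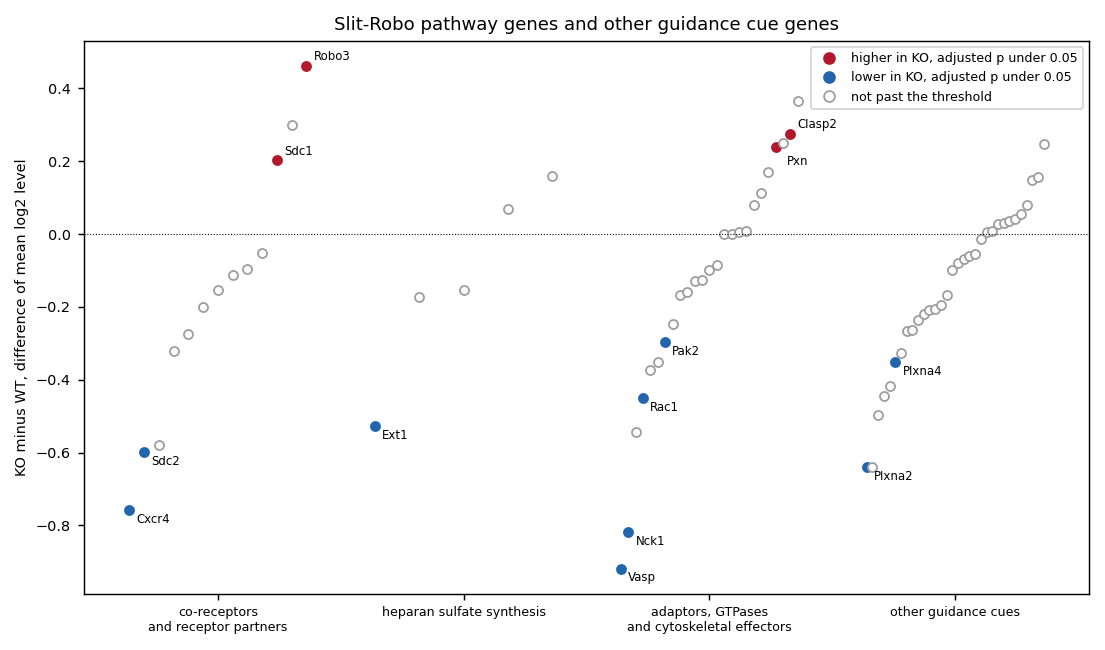
KO minus WT difference of mean log2 level (y axis) of each measured gene of the Slit-Robo pathway lists and of other guidance cue families (x axis), ordered by size within a list; filled points passed the threshold and are named. The called pathway genes run from -0.92 (Vasp) to 0.46 (Robo3), and the called genes of other cues, Plxna2 and Plxna4, lie at -0.64 and -0.35.

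Other guidance families were read in the same way. Of 32 measured semaphorins, plexins, neuropilins, netrins, ephrins and their receptors, 2 fell (6.25%), 0 rose and 30 did not pass, with a median difference of -0.09. Of the 32, 31 were not dim, and 4 of these were called in the fit of only the genes that were not dim. Plxna2, a plexin receptor for semaphorins, fell with -0.64 (limma adjusted p = 0.00880), and its 3 other probe sets lay between -0.35 and -0.18. Plxna4 fell with -0.35 (adjusted p = 0.0285), a call lost without 5 of the 7 arrays in turn.

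The genes most like Slit2 at 1424659_at over the 7 arrays, by Pearson correlation among 13284 other genes above the level limit, were Trak2 (r = 0.997), which couples mitochondria to motors, Dhrs1 (0.994), Atg5 (0.994), an autophagy protein, the membrane protein Gpm6b (0.994) and the Hsp90 co-chaperone Ahsa1 (0.993). All arrays fall into the same KO and WT clusters, so r is a description of that shared gap. Slit3 had r = 0.970 with Slit2 and rank 99 in that order, against 0.518 for Robo1 at 1427231_at, 0.147 for Srgap1 and -0.751 for Slit1.

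Whole lung holds many cell types, and fewer cells of a type cannot be told apart from less RNA per cell. Over all genes 6.52% were called lower and 4% higher in KO, and none of the cell type markers was called higher. In the fit of only the genes at or above the level limit, 15.6% of 13285 were called in either direction. Beside the lower Slit2 and Slit3, 2 of 8 fibroblast markers fell, Tcf21 (-0.75) and Dcn (-0.46), and the log2 of the list's summed level ran from 14.37 to 14.64 in KO and 14.60 to 14.76 in WT. Such a sum is carried mostly by its brightest probe sets and is not an average over the markers. Of 6 smooth muscle markers 3 fell, with summed levels of 13.04 to 13.19 in KO and 12.96 to 13.23 in WT. That sum was mostly Acta2, which differed by 0.165 without passing. Of 4 pericyte markers 1 fell, with 12.80 to 12.98 in KO and 12.64 to 12.94 in WT. Of 6 mesothelial markers 3 fell, with 9.412 to 9.918 in KO and 9.924 to 10.689 in WT, narrowly without overlap. Of 8 endothelial markers 3 fell, with 13.49 to 13.72 in KO and 13.82 to 13.97 in WT, also without overlap. Of 4 measured neuronal markers none passed, and 3 lay under the level limit. Their summed levels were 6.64 to 6.72 in KO and 6.48 to 6.60 in WT, without overlap and higher in KO. In the lists for alveolar type 1, alveolar type 2 and ciliated cells 1 marker each fell. Summed levels of alveolar type 1 ran from 15.06 to 15.19 in KO and 15.16 to 15.24 in WT. Those of alveolar type 2 ran from 15.09 to 15.13 in KO and 15.23 to 15.39 in WT, without overlap. Those of ciliated cells did not overlap either, with 10.54 to 10.90 in KO and 11.16 to 11.43 in WT. The ciliated sum was mostly Tppp3 (-0.71), the 1 marker of that list that fell. None of the club or leukocyte markers passed, and their summed levels overlapped. The part of these markers in the Slit differences was not tested.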

How the data were processed

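Total RNA of left lungs was biotin-labelled and hybridised to 1 array per mouse, per the labels' protocols. The deposited table holds log2 values of 45101 probe sets, 64 of them controls, to 2 decimals; the log base was taken from their range. Per the submitters' processing notes the authors used Affymetrix Expression Console, RMA and MAS5, but no version is stated, nor which method made the table. Of the 45037 others, the platform annotation gave 34945 a single gene.

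KO and WT were compared over all 45037 probe sets with lmFit and eBayes in limma 3.58.1 (R 4.3.3), genotype as the only term, and Benjamini-Hochberg adjusted p under 0.05 as the threshold. On simulated arrays with 45037 probe sets this recovered 33 of 63 planted log2 changes of 0.5, 69 of 79 of 1 and 56 of 58 of 1.5, with 6 false calls among 164. The simulation held 200 changes in independent noise, whereas 9.89% of probe sets were called in the data. Its rates check the procedure and do not carry over to the KO and WT comparison. Pathway, guidance and marker genes were read at their probe set of highest mean. The members and lists were chosen with earlier results of these data known. Named genes were all members, up to 5 called genes of each list by smallest p, and the 5 genes most like Slit2. Robo4, which was not called, and Clasp2, beyond the 5 of its list, were named outside this rule. Gata5, Xist and Eif2s3y were read as checks. Same-numbered mice were not taken as pairs (correlations of deviations 0.04, -0.11 and 0.05). Alternatives changed the normalization, level filter, probe sets, variance model, array weights, covariates, block and arrays. Precision is limited by the number of arrays. Figures used matplotlib 3.10.9.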

Additional observations from a re-analysis of the deposited data

Results flagged for a closer look

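Within the 4 WT mice, 3 of the 18 member probe sets had 1 mouse beyond Dixon's limit at 95%. Chance gives this for about 1 group in 20 of normal values without rounding. The deposited values are rounded to 2 decimals and can tie, so that rate does not carry over to them. Groups of 3, such as KO, were not examined. At Slit3 1452296_at WT replicate 3 read 8.25 against 8.35 to 8.37 in the others, and it still lay above the KO mice. Its gap over the range was 0.833, close to the limit of 0.829. At Robo2 1458229_at WT replicate 2 read 4.25 against 4.91 to 4.98. At Robo1 1445549_at WT replicate 3 read 4.07 against 4.12 on each of the other WT arrays, a dim probe set with nearly constant values.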

How the results depend on the processing

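Slit2 at 1424659_at was -0.65 after a further quantile normalization, -0.67 after cyclic loess, -0.42 as the mean of its probe sets, and -0.78, -0.69 and -0.82 with the beta-actin 3′ minus 5′, beta-actin 3′ minus middle and Gapdh covariates. Among the members, with Slit2 counted although it is a description, 2 probe sets were called as deposited and 4 after quantile normalization and after cyclic loess. The count was 0 with each of the 4 covariates and among the 5 mice with the lowest numbers. It was 1 with the replicate block, and 2 to 4 with 1 array left out. Slit2 was part of each of these counts above 0 and the only call with the replicate block, and nothing is read from its calls. Of the tested members, Slit3 was called as deposited, joined by Srgap2 1429884_at after quantile normalization and after cyclic loess. With 1 array left out Slit3 was called each time, joined by Srgap2 1429884_at and 1427967_at without KO replicate 3. Over all probe sets the count was 2069 with 1 probe set per gene, 1748 with the mean per gene, 0, 1 and 13 with those covariates in the order above (limma, unadjusted p under 0.05 for 7989, 5099 and 7714), 0 with the spikes (7434), 0 among the 5 mice (8007), 1322 with the replicate block, and 1974 to 4251 with 1 array left out, lowest without WT replicate 4. Pathway genes called were 7 with the mean per gene and with array weights, 5 with the replicate block, 0 with the covariates and the 5 mice, and 5 to 13 with 1 array left out, 5 without KO replicate 3 or WT replicate 1, 3 or 4. Other guidance genes called were 5 with median centring and the level filter, 4 with 1 filtered probe set per gene, 1 with the mean per gene, 0 with the covariates and the 5 mice, and 1 to 3 with 1 array left out.

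The sign turned only at probe sets that had not passed. Srgap1 1442175_at was at 0.059 after quantile normalization, 0.034 after cyclic loess, 0.029 as a mean, 0.028, 0.20 and 0.031 with beta-actin 5′, beta-actin middle and the spikes, 0.050 with the replicate block, 0.088 in the 5 mice and -0.057 to 0.050 with 1 array left out. Srgap2 1434406_at was at 0.061, 0.040 and 0.11 after the first 3 of these, 0.18 with beta-actin middle and -0.085 to 0.070 with 1 array left out, and Srgap2 1434407_at at 0.037, 0.0044 and 0.0097 with beta-actin 5′, Gapdh and the spikes and -0.060 to 0.015 with 1 array left out. Robo1 1445549_at was at -0.057, -0.019 and -0.052 after quantile normalization, median centring and cyclic loess, Robo2 at -0.033 with beta-actin 5′ and -0.031 with the spikes, and Slit1 1440056_at at -0.18 with beta-actin middle. The causes were not tested. With 3 and 4 arrays, log2 changes near 0.5 can be missed.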
